A study of Rattus norvegicus with 2 samples.

Results

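The xenobiotic metabolism enzymes described here are the cytochrome P450 (Cyp) genes of the Cyp1 to Cyp4 families, the glutathione S-transferases (Gst and the microsomal Mgst), the UDP-glucuronosyltransferases (Ugt1 and Ugt2) and the cytosolic sulfotransferases (Sult). Members were chosen by gene symbol and by a minimum of 50 UMIs (unique molecular identifiers, each 1 captured transcript) summed over both libraries. Of 32883 rows of the count tables, 93 had a matching symbol and 52 of them were members. These were 24 of 52 Cyp rows, 19 of 24 Gst and Mgst rows, 5 of 5 Ugt rows and 4 of 12 Sult rows. The members just inside the minimum were Cyp2c6v1 with 66 UMIs and Cyp4f40 with 83, and the rows just outside it were Cyp4f39 with 39 and Gstm3l with 38. The members took 0.912% of all UMIs in rat 1 and 0.584% in rat 2.

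Epithelium was shaken off the proximal jejunum of 2 male Sprague Dawley rats, dissociated and sequenced as single cells with the 10x Genomics 3' assay, 1 library per rat. Both rats were 6-8 weeks old and fasted overnight, and no group given a foreign compound was included. The levels are therefore those of the fasted small intestine, and the comparisons are between cell classes within these rats. Each rat gave 1 sum of UMIs per cell class, so that every comparison rested on n = 2 rats.

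Foreign chemicals that enter with food meet the intestinal epithelium first. Phase I enzymes, mainly P450s, add or uncover a reactive group, and phase II enzymes then attach glutathione (Gst), glucuronic acid (Ugt) or sulfate (Sult), after which pumps move the product out of the cell. Epithelial cells are born in the crypt and mature as they climb the villus, where absorptive enterocytes lie among secretory goblet, enteroendocrine and tuft cells.

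The libraries held 12033 barcodes and 99986348 UMIs in rat 1, and 8252 barcodes and 66469907 UMIs in rat 2. After filtering, 5988 and 2230 barcodes were retained, and 28 barcodes occurred in both libraries, 4 of them retained. Classes were rebuilt here from marker genes and stand for cells like the named type. Summed over 5 epithelial genes (Krt20, Krt19, Krt18, Krt8, Epcam), every named class of both rats lay between 6603 and 38344 CPM (UMIs of these genes per 1000000 UMIs of the class). They held 1159 crypt cells in rat 1 and 39 in rat 2, 177 and 16 secretory progenitors, 164 and 137 goblet/Paneth cells, 22 and 11 enteroendocrine cells, 14 and 121 tuft cells, and 7 and 76 CFTR high expresser (CHE) cells. Enterocytes were split into 3 equal-sized classes of the pooled cells by a villus program score that used no member: 1344 and 214 early, 1279 and 278 middle and 947 and 611 mature cells. The score is continuous, and 426 and 645 of the 4673 enterocytes lay within 0.1 of the lower and the upper boundary. The 39 crypt cells of rat 2 also carried blood cell RNA. In them Ptprc, a marker of white blood cells, was at 74.5 CPM against 1.80 in rat 1, and the 4 genes of the erythroid list summed to 8549 against 328 CPM, and their part in the comparisons with crypt cells was not tested.

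Opposed patterns ran along the crypt-villus axis. Mgst3, Gstp1, Mgst1 and Mgst2, the most abundant glutathione transferases, had their highest levels in early enterocytes and lower ones toward the villus tip, whereas most P450s had higher levels toward it. The P450 with most UMIs, Cyp4f1, was an exception, highest in middle enterocytes of rat 1 and early enterocytes of rat 2. The members together made up 0.675% and 0.485% of crypt UMIs in rats 1 and 2, 1.56% and 1.38% in early, 1.03% and 1.10% in middle and 0.745% and 0.776% in mature enterocytes. Within the members' UMIs, the Gst share went from 92.5% and 89.4% in crypt cells to 77.3% and 65.4% in early and 31.8% and 26.9% in mature enterocytes. Over the same classes the Cyp share went from 2.15% and 3.52% to 7.17% and 14.4% and then 37.3% and 43.5%. The same named class was highest in both rats for 34 of the 52 members, and it was mature enterocytes for 12, early enterocytes for 10, crypt cells for 4, enteroendocrine cells for 3 and middle enterocytes for 2, with 1 each for tuft cells, CHE cells and secretory progenitors. This is a ranking of levels without a test, and the share over all genes is not given here. For some of the 34, such as Sult1b1, Cyp3a18 and Gstm6l, the counting intervals of the highest and the next class overlapped in at least 1 rat. Some rested on few UMIs, such as Cyp2c6v1 with 2 in enteroendocrine cells of each rat.

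**Figure D1:**
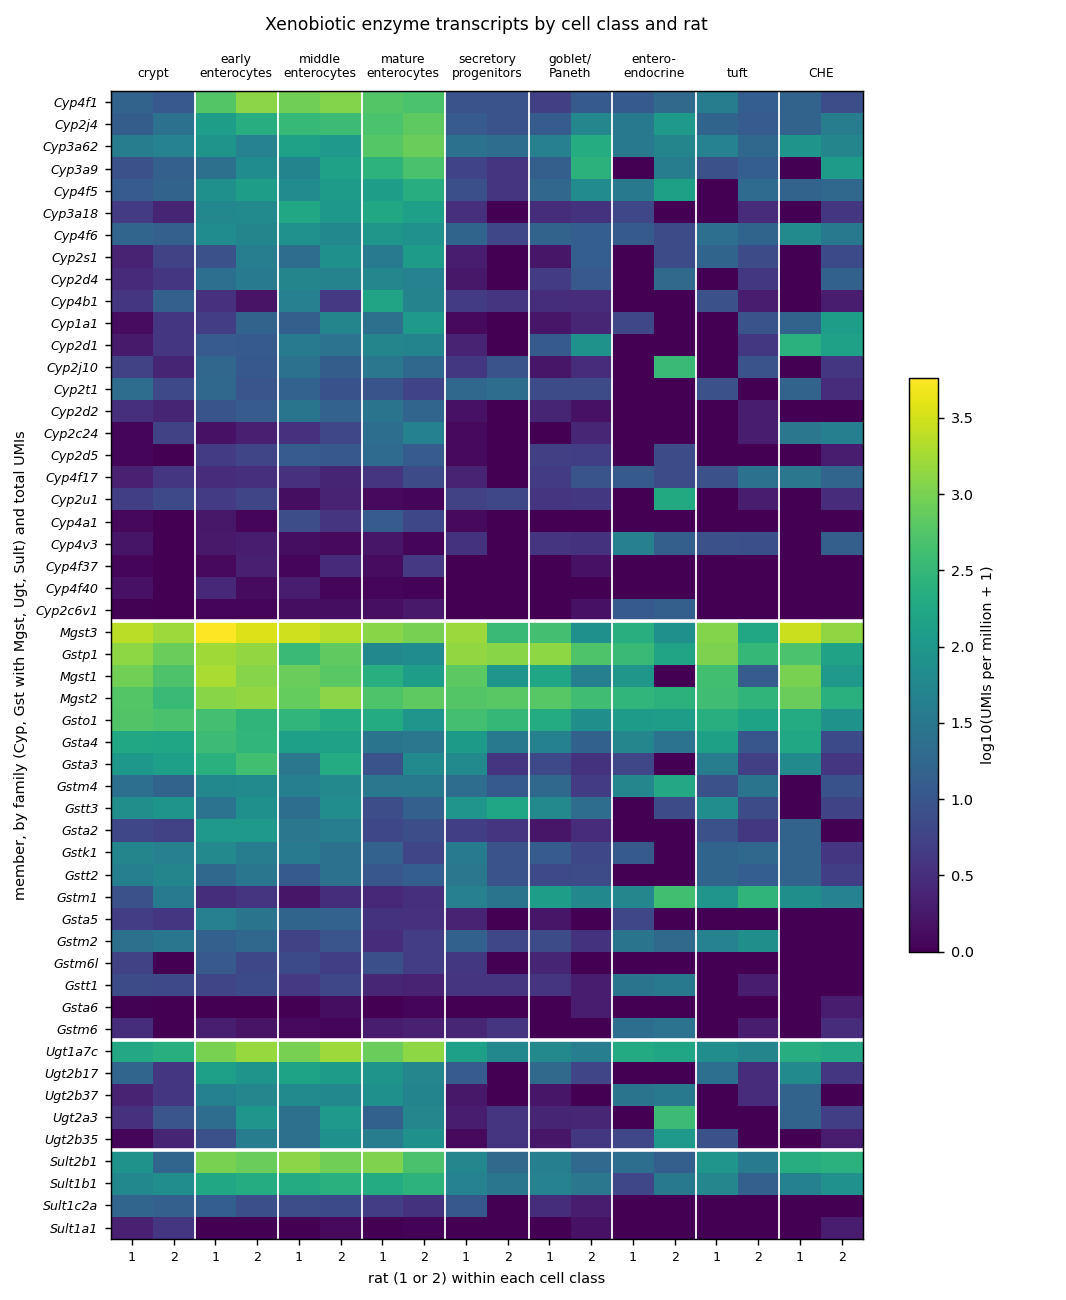
Level of each member in each cell class as log10 of CPM plus 1, with members on the vertical axis by family and the cell classes of each rat on the horizontal axis. Mgst3 was the most abundant member in early enterocytes of both rats, at 5759.9 and 3619 CPM, and Cyp3a62 reached 592 and 822 CPM in mature enterocytes.

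The windows upstream of 6 members are shown because these genes stood at opposite ends of the enterocyte axis: Cyp3a62, Cyp3a9 and Cyp2j4 toward the tip, and Gsta2, Gstp1 and Mgst1 toward the base. Each holds the 250 bases before the annotated start, written 5′ to 3′ on the gene's strand, from RefSeq on build GRCr8, which is newer than the Rnor6 build behind the counts. They lie at chr12:21511513-21511762 on the plus strand, chr12:21960161-21960410 on the minus strand, chr5:116323043-116323292 on the minus strand, chr8:88077093-88077342 on the minus strand, chr1:210769706-210769955 on the minus strand and chr4:172760680-172760929 on the plus strand, in this order. Capitals mark exact matches to any of 5 searched strings: TATAAA in the sense direction only, and on both strands GCGTG (the core of the xenobiotic response element bound by the aryl hydrocarbon receptor), TGACNNNGC (the core of the antioxidant response element, which can overlap AP-1 sites), AGTTCA (a nuclear receptor half-site) and CAAAGTCCA (an HNF4 site).
Cyp3a62: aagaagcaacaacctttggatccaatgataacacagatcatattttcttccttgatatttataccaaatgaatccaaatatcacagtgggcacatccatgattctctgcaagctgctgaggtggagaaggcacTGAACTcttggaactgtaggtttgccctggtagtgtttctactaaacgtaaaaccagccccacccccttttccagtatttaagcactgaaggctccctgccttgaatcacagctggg
Cyp3a9: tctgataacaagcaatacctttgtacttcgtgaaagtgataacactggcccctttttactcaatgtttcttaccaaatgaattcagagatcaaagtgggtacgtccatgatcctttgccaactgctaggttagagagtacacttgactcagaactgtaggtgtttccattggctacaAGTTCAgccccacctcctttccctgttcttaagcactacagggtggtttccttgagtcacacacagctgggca
Cyp2j4: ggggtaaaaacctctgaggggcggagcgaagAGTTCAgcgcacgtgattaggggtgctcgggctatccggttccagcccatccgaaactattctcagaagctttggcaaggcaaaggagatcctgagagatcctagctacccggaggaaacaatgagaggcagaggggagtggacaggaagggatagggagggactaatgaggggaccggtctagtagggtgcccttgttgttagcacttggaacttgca
Gsta2: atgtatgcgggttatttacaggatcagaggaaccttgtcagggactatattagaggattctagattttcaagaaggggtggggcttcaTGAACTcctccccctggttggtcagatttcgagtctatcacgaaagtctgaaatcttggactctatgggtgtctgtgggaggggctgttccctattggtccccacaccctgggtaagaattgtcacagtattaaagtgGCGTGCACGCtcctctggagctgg
Gstp1: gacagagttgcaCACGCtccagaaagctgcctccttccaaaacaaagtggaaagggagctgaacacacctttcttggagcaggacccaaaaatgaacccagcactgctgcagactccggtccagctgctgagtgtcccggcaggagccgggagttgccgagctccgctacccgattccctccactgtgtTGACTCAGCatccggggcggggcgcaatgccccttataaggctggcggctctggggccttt
Mgst1: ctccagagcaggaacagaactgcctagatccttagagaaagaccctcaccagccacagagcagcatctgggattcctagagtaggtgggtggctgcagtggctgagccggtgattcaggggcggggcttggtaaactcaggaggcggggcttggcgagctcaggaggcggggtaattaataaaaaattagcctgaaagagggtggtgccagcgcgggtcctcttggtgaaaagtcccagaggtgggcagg

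The 3 Cyp windows each held AGTTCA and none of the other strings. The Gsta2 window held GCGTG on both strands and AGTTCA, the Gstp1 window held GCGTG and TGACNNNGC, and the Mgst1 window held no match. Windows were at hand for 42 of the 52 members. AGTTCA occurred in those of 10 members, against 12.2% of all 33469 windows, GCGTG in 14 against 25.9%, TGACNNNGC in 5 against 10.1%, TATAAA in 3 against 8.06% and CAAAGTCCA in 0 against 0.338%. The windows of Cyp3a62 and Cyp3a9 were 43.2% identical over 241 aligned bases, whereas the other pairs among these 6 genes were 28.1% to 33.2% identical. A match describes letters in the window and is not evidence that a factor binds there.

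Mature enterocytes were first compared with early enterocytes, which asks how each member differed along the villus program. Of 47 members with enough counts to test, 10 were higher in mature enterocytes, all of them P450s, and 3 were lower, all of them glutathione transferases (edgeR quasi-likelihood test, adjusted p under 0.05). Over all 10182 genes 8.6% were called, 3.92% higher and 4.68% lower. The members' median log2 fold change was 0.35, against -0.02 over all genes, and it was 2.27 over the 21 Cyp members and -1.62 over the 18 Gst members. With the rat as replicate block, 25 members were called, 17 higher and 8 lower, and these included all 13. The block raised calls among all genes too, from 876 to 2730 of 10182. The 12 members added by the block were Cyp3a9, Cyp2s1, Cyp2d4, Cyp4f5, Cyp4f6, Cyp4f17 and Ugt2b35, which were higher, and Gstm2, Gstk1, Gstt1, Gsta4 and Mgst1, which were lower. With these classes made within each rat, 8 were called, 4 in each direction and 7 of them among the 13, and without a filter on low counts 23 were called, including all 13. Of all genes these fits called 376 of 10188 and 1681 of 17254. Another list moved with this comparison: the median UMIs per cell of 5 immune genes were 0 in early, 4 in middle and 8 in mature enterocytes thinned to 5000 UMIs. Of these genes Cd74, of the MHC class II pathway, went from 81.2 and 18.1 CPM in early to 2289 and 1022 CPM in mature enterocytes, whereas Ptprc was at most 3.56 CPM in any enterocyte class. The part of this list in the comparison was not tested.

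The fit scales each sum by a composition factor (TMM), which was 1.24 and 1.51 for crypt cells of rats 1 and 2, 0.922 and 0.839 for early and 0.623 and 0.548 for mature enterocytes. Fitted changes toward mature cells are therefore larger than ratios of CPM. With library totals alone, the median of all genes moved from -0.02 to -0.60, and 7 members were higher in mature than in early enterocytes, all P450s, and 7 lower, all glutathione transferases. This scaling called 1757 of all 10182 genes, and only 14.9% of these calls were higher, so lower calls were common among all genes too. Cyp2j4, Cyp1a1 and Cyp2d2 were then not called (adjusted p = 0.069, 0.051 and 0.14), and Gsta4, Gstm2, Gstk1 and Gstt1 were called lower. Cyp4b1, Cyp2c24, Cyp4a1, Cyp3a62, Gstp1, Gsta2 and Gsta5 were called in the same direction by both scalings. In the alternative fits of this comparison 0 Gst members were called higher, and 1 Cyp member, Cyp2u1, was called lower in 2 of them, the fit without a low-count filter and that with the cluster between crypt and enterocytes counted as enterocytes.

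Cyp3a62, a drug and steroid oxidase of the rat intestine, was at 86.5 in rat 1 and 44.8 in rat 2 in early enterocytes, 141 and 106 in middle enterocytes and 592 and 822 CPM in mature enterocytes. Both mature values lay above all 4 others, and the log2 fold change from early to mature cells was 4.05 ± 0.69 (adjusted p = 0.0062), with the SE taken from the fit to all classes of n = 2 rats. With every cell thinned to 5000 UMIs, Cyp3a62 was detected in 34.6% of early enterocytes in rat 1 and 19.6% in rat 2 and in 85.6% of mature enterocytes in rat 1 and 91.5% in rat 2, beside 21.4% of tuft cells in rat 1 and 6.61% in rat 2. Cyp3a9, a related P450, went from 23.3 and 66.5 CPM in early to 272 and 481 CPM in mature enterocytes, a log2 fold change of 3.66 ± 1.21 (adjusted p = 0.074) that did not pass the threshold without the block and did with it (3.84 ± 0.74, adjusted p = 0.0016).

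Cyp2j4, whose family oxidizes arachidonic acid, stood at 129 in rat 1 and 220.1 in rat 2 in early, 332 and 379.9 in middle and 495 and 674 CPM in mature enterocytes, and its log2 fold change was 2.33 ± 0.66 (adjusted p = 0.045). Its levels rose at each step in both rats. Cyp4b1, an oxidase of fatty acids and several protoxins, had the largest fitted change, 6.51 ± 1.13 (adjusted p = 0.0075). It was at 2.44 in rat 1 and 0.588 in rat 2 in early and 157 and 46.9 CPM in mature enterocytes, and in rat 2 the early value came from 4 UMIs.

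Cyp2c24 rose from 0.548 and 1.18 to 21.8 and 44.0 CPM, a log2 fold change of 5.96 ± 0.94 (adjusted p = 0.0051). Cyp4a1, a fatty acid omega-hydroxylase, rose from 0.748 and 0.147 to 11.6 and 5.50 CPM, or by 4.60 ± 0.83 (adjusted p = 0.012) on the log2 scale. Cyp1a1, the classical target of the aryl hydrocarbon receptor, rose from 3.89 and 15.0 to 23.3 and 103 CPM, or by 3.38 ± 0.98 (adjusted p = 0.047). The mature values of Cyp1a1 differed between the rats, but within each rat the order early, middle, mature was kept. The other P450s called higher were Cyp2d1, Cyp2d2, Cyp2d5 and Cyp3a18, with log2 fold changes of 2.80, 1.69, 2.37 and 1.98. Of the 16 alternative fits, Cyp2d2 was not called in 7, Cyp1a1 and Cyp2j4 in 4 each and Cyp3a18 in 3. The Cyp2d genes are close copies of each other, and reads of such genes may be divided among them by the counting.

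Gstp1, the pi class glutathione transferase, was at 1694 in rat 1 and 1437 in rat 2 in early, 348 and 702 in middle and 55.6 and 66.0 CPM in mature enterocytes, and its log2 fold change was -4.08 ± 0.75 (adjusted p = 0.0082). The ranges of the early and mature cells did not overlap. Gsta2, an alpha class enzyme, fell from 104 and 109 to 5.47 and 7.08 CPM, or -3.48 ± 0.56 (adjusted p = 0.0055), and Gsta5, also of the alpha class, from 42.8 and 26.8 to 2.57 and 2.45 CPM, or -3.19 ± 0.55 (adjusted p = 0.0081). In cells thinned to 5000 UMIs, Gsta2 was detected in 2.67% of crypt cells in rat 1, in 42.3% of early enterocytes in rat 1 and 36.9% in rat 2, in 11.4% of middle enterocytes in rat 1 and 15.5% in rat 2 and in 1.80% of mature enterocytes in rat 1 and 2.45% in rat 2. Of the 39 crypt cells of rat 2, 0 had a Gsta2 UMI after thinning, which limits the cells with a UMI at this depth, and not those that express the gene, to 7.69% by 3 counts. Before thinning they held 3 Gsta2 UMIs.

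Mgst3, a microsomal transferase that also has peroxidase activity, was the most abundant member in early enterocytes of both rats. It was at 5759.9 in rat 1 and 3619 in rat 2 in early and 1221 and 962 CPM in mature enterocytes, and the related Mgst1 was at 1948 and 1196 and 233 and 122 CPM. Both were lower in mature cells of each rat, but their fitted changes of -1.51 ± 0.93 (adjusted p = 0.33) and -2.57 ± 1.39 (adjusted p = 0.26) did not pass, although Mgst1 did with the rat as block (-2.62 ± 0.83, adjusted p = 0.028). Gsta4, which conjugates lipid peroxidation products, stood at 380.5 and 294 against 26.6 and 29.9 CPM (adjusted p = 0.092, or 0.01 with the block). Mgst2, with 1231 and 1419 and 534 and 669 CPM in the same classes, differed least of these (adjusted p = 0.55).

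**Figure D2:**
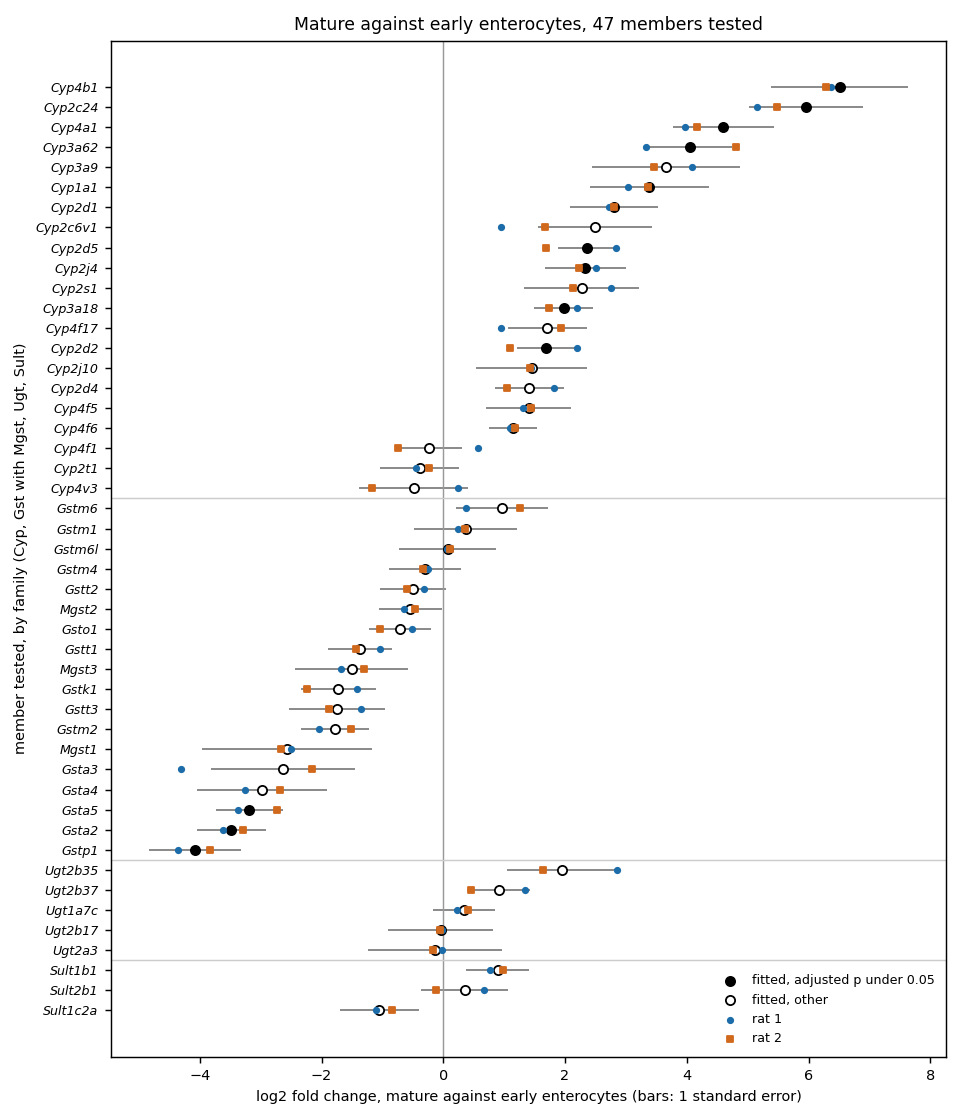
Log2 fold change of each tested member in mature against early enterocytes, with bars of 1 SE of the fit over n = 2 rats, members grouped by family, called members filled, and the difference within each rat as coloured points. The 10 members called higher were all Cyp genes, led by Cyp4b1 at 6.51, and the 3 called lower were Gstp1, Gsta2 and Gsta5.

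Further P450s had higher levels in mature cells and were called with the rat as block but not without it. Cyp4f5, of the leukotriene and fatty acid hydroxylases, was at 76.6 in rat 1 and 121 in rat 2 in early and 129 and 216 CPM in mature enterocytes, Cyp4f6 at 66.6 and 52.9 and 96.7 and 78.5, and Cyp2s1, a P450 of epithelia outside the liver, at 7.53 and 39.8 and 35.7 and 114. The adjusted p of these was 0.22, 0.085 and 0.14 without the block, and 0.033, 0.0089 and 0.00087 with it. Cyp2t1 was instead at 17.3 and 8.68 in early and 8.47 and 4.80 CPM in mature enterocytes (adjusted p = 0.76).

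Gsta3, an alpha class enzyme, was at 247 and 416 in early, 29.8 and 204 in middle and 8.21 and 60.4 CPM in mature enterocytes. It was lower at each step in both rats, with a shallower gradient in rat 2, and its fitted change of -2.63 ± 1.19 (adjusted p = 0.17) did not pass. Gstk1, the kappa class enzyme of mitochondria and peroxisomes, was at 56.9 and 37.8 and 14.3 and 5.07 CPM in early and mature cells (adjusted p = 0.09, or 0.0024 with the block), and Gstm4 at 55.2 and 62.9 and 31.3 and 32.7.

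Among the conjugating Ugt and Sult members, 0 of 5 Ugt and 0 of 3 tested Sult members were called between mature and early enterocytes by DESeq2 or by edgeR without the block, and 1 Ugt member and 0 Sult members had an unadjusted edgeR p under 0.05. Ugt1a7c counts the whole Ugt1a locus, whose forms share their 3′ exons and cannot be separated by these reads. It was at 1018 in rat 1 and 1517 in rat 2 in early, 968 and 1599 in middle and 802 and 1314 CPM in mature enterocytes. Ugt2b17, which glucuronidates steroids, was at 132 and 87.1, 153 and 115 and 87.8 and 54.5 CPM in these classes, highest in the middle class of both rats. Ugt2b35 was at 7.53 and 36.6 CPM in early and 38.1 and 75.2 CPM in mature cells (adjusted p = 0.19, or 0.0014 with the block), Ugt2b37 at 43.8 and 53.7 and 75.2 and 48.4, and Ugt2a3 at 21.0 and 93.5 and 13.9 and 54.3.

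Sult2b1, which sulfates cholesterol and other sterols, was the most abundant sulfotransferase, at 1005 in rat 1 and 789 in rat 2 in early, 1271 and 877 in middle and 1075 and 475 CPM in mature enterocytes. Sult1b1, which acts on phenols and thyroid hormones, was nearly level at 181 and 212, 203 and 241 and 208 and 273 CPM. Sult1c2a was lower, at 12.4 and 7.21 in early and 3.76 and 2.53 CPM in mature cells. Sult1a1, the phenol sulfotransferase, had at most 2.92 CPM in any named class.

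A finer division placed the enterocytes in 10 steps of the villus program score with the same boundaries in both rats. Of the 37 members with at least 200 enterocyte UMIs in each rat, 13 of 14 Gst members peaked in steps 1 to 3 in both rats, against 51.7% of 5528 genes, and 14 of 16 Cyp members peaked in steps 8 to 10, against 20% of genes. Step 1 held only 11 cells of rat 2, and without it 12 Gst and 14 Cyp members peaked there. The other 2 Cyp members were Cyp3a18 and Cyp4f1. Cyp4f1, the P450 with most UMIs, peaked in step 4 in rat 1 and step 3 in rat 2. Its level was higher in step 2 than in step 10, by 2.30-fold in rat 1 and 6.21-fold in rat 2. Sult1b1 peaked in steps 8 to 10, and Ugt2b17, Ugt2a3 and Sult2b1 in steps 4 to 7, where 5.46% of genes peaked in both rats. Comparing step 10 with step 2, Cyp3a62 was higher by 15.9-fold in rat 1 and 29.5-fold in rat 2, Cyp3a9 by 35.1-fold in rat 1 and 11.8-fold in rat 2 and Cyp4b1 by 107-fold in rat 1 and 103-fold in rat 2. Comparing step 2 with step 10, Gstp1 was higher by 43.3-fold in rat 1 and 85.5-fold in rat 2, Mgst1 by 33.6-fold in rat 1 and 68.3-fold in rat 2 and Gsta2 by 40.7-fold in rat 1 and 138-fold in rat 2. In rat 2 the lower steps of Cyp4b1 and Gsta2 rested on 2 and 4 UMIs, and in rat 1 on 11 and 6. Mgst3 differed by 16.7-fold in rat 1 and 8.45-fold in rat 2, and Gsto1, an omega class enzyme that reduces dehydroascorbate, by 4.38-fold in rat 1 and 7.50-fold in rat 2.

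**Figure D3:**
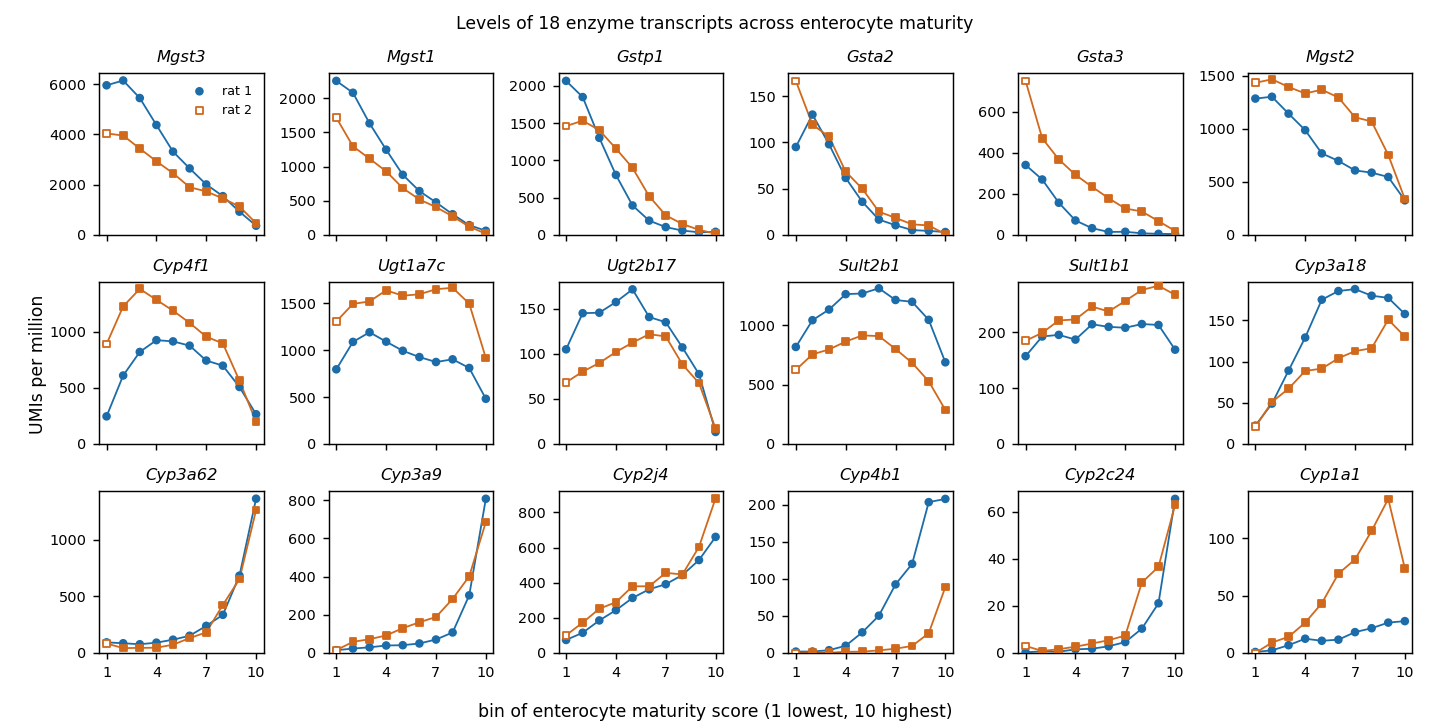
Level in CPM, on linear axes from 0, of 18 members over 10 steps of the villus program score, with 1 line per rat and open points for steps of under 20 cells. Cyp3a62, Cyp3a9 and Cyp2j4 climbed toward step 10 in both rats, whereas Gsta2, Gstp1 and Mgst1 had their highest levels in steps 1 to 3.

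Mature enterocytes were next compared with crypt cells, which contrasts the ends of the axis. Of the 47 members, 29 were higher in mature enterocytes and 2 were lower. Of all genes 50.2% were called, 23.3% higher and 26.9% lower. The members called higher were 19 of 21 Cyp, 3 of 18 Gst, 5 of 5 Ugt and 2 of 3 Sult members, and both that were lower were Gst members. The members' median log2 fold change was 3.62, against -0.15 over all genes. With library totals alone these medians were 2.37 and -1.34, 23 members were higher and 9 lower, and 18.5% of all calls were toward mature cells, against 46.4% with TMM. This scaling called 5817 of all 10182 genes. The Gst members called higher with TMM, Gsta2, Mgst2 and Gstm4, were then not called (adjusted p = 0.67, 0.56 and 0.33), whereas Gsto1, Gstm1, Gstk1, Gstt1, Gstt2, Gstt3 and Sult1c2a were called lower beside Gstp1 and Gstm2.

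Alpha-defensin genes (Defa9, Defal1, Defa8, Defa24, Defa6), which Paneth cells make, led 1 cluster of the crypt class beside the stem markers Olfm4 and Ascl2. It supplied 172 crypt cells in rat 1 and 8 in rat 2. The Paneth list summed to 12565 CPM in those cells of rat 1, against 204 in the other crypt cells, and the stem list to 3818 against 779.9 CPM. Another cluster, with 337 and 10 cells, had the lymphocyte genes Xcl1 and Gzma beside cycling genes such as Top2a among its leading genes. Without the former 31 members were called, and without the latter 30, and in both cases 30 of these were among the 31 called with all crypt cells. Gsta2 was the member not called in either.

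Crypt levels of the most changed members rested on few molecules. Ugt2b35 had 2 UMIs in the crypt of rat 1 and 1 in that of rat 2, against 38.1 and 75.2 CPM in mature enterocytes, a log2 fold change of 9.15 ± 1.53 (adjusted p = 0.00036). The ratio of its levels was 339.7 in rat 1 (95% interval 93.5 to 2814) and 51.5 in rat 2 (95% interval 9.22 to 2037), with intervals for counting error only. Cyp1a1 had 6 and 2 crypt UMIs, and its ratio was 69.1 in rat 1 (95% interval 31.3 to 189.8) and 35.4 in rat 2 (95% interval 9.77 to 292). Cyp2c24 had 3 crypt UMIs in each rat and a log2 fold change of 7.07 ± 1.17 (adjusted p = 0.0004).

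Other members had more crypt molecules, at least in rat 1. Cyp3a18, with 63 crypt UMIs in rat 1 and 1 in rat 2, was at 3.54 and 1.46 CPM in crypt cells and 176 and 133 CPM in mature enterocytes, a log2 fold change of 6.74 ± 0.64 (adjusted p = 2.2e-05). Cyp4f1, a leukotriene B4 omega-hydroxylase, was at 14.6 and 10.2 CPM in crypt cells, but already at 576 and 1287 CPM in early and 575 and 503 CPM in mature enterocytes. Its change from crypt to mature cells was 6.55 ± 0.69 (adjusted p = 3.1e-05), whereas that from early to mature cells was -0.23 ± 0.54 (adjusted p = 0.83) and did not pass. Ugt1a7c and Sult2b1 likewise stood at 184 and 226 and at 80.7 and 16.1 CPM in crypt cells, below every enterocyte class.

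Gstp1 and Gstm2, a mu class enzyme, were the members lower in mature enterocytes than in crypt cells. Gstp1 was at 1320.4 in rat 1 and 829 in rat 2 in crypt cells against 55.6 and 66.0 CPM in mature cells, a log2 fold change of -2.95 ± 0.71 (adjusted p = 0.0037). Gstm2 was at 23.6 and 29.2 against 1.97 and 3.84 CPM, or -1.92 ± 0.57 (adjusted p = 0.014). Gsta2 of the alpha class was at 5.33 and 4.38 CPM in crypt cells, 104 and 109 in early and 5.47 and 7.08 in mature enterocytes. Its early level thus stood above both ends of the axis, and the ends were close in CPM.

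Gsto1, Gstt2, Sult1c2a and Sult1a1 had their highest level among the named classes in crypt cells of both rats. In rat 2 the crypt levels of Sult1c2a and Sult1a1 came from 9 and 2 UMIs, in cells that also carried blood cell RNA. Their counting intervals there overlapped those of the next class. In the unnamed cluster between crypt and enterocytes, Gsto1 was at 579 and 477 CPM in rats 1 and 2 and Sult1c2a at 17.2 and 8.57. In crypt cells Gsto1 was at 543 and 474 CPM, against 208 and 92.1 in mature enterocytes, and Gstt2 of the theta class at 41.1 and 52.6 against 9.41 and 12.4. Gstt3, also of the theta class, was instead highest in secretory progenitors of both rats, at 94.3 and 166 CPM, the rat 2 value coming from 62 UMIs.

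The secretory classes were each compared with the mean of the 3 enterocyte classes, so these comparisons share the enterocyte sums. In all of them the members' median was below that of all genes. Goblet/Paneth cells had 1 member higher and 29 lower of 47, where 32.2% of all genes were called, 17.6% higher and 14.6% lower. Tuft cells had 4 higher and 30 lower (32.3% of genes, 16.1% higher and 16.2% lower). CHE cells, which carry high levels of the chloride channel gene Cftr, had 5 higher and 22 lower (17.5% of genes, 7.81% higher and 9.65% lower). Enteroendocrine cells had 6 higher and 18 lower (24.5% of genes, 11.6% higher and 12.9% lower).

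Members with 0 UMIs in a secretory class of both rats made the fitted medians depend on the fit's handling of zeros. The median over the members was -2.83 in goblet/Paneth cells, or -2.71 with 2 such members set at the bound that 3 counts per library allow. It was -3.86 or -2.90 in tuft cells with 7 such members, -3.09 or -1.99 in CHE cells with 8 and -3.36 or -1.58 in enteroendocrine cells with 11. The medians of all genes were 0.07, 0, -0.20 and -0.24. With library totals alone the members called numbered 25, 26, 19 and 21 in these classes, with 2, 4, 5 and 6 of them higher. Of all 10182 genes, 3477, 4387, 1770 and 2493 were then called.

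Gstm1 of the mu class was the member called higher in all 4 secretory classes. It was at 123 in rat 1 and 56.4 in rat 2 in goblet/Paneth cells, 91.3 and 286 in tuft cells, 54.0 and 423 in enteroendocrine cells and 74.0 and 45.4 CPM in CHE cells. In early, middle and mature enterocytes it was at 2.09 and 2.65, 0.669 and 2.11 and 1.71 and 2.27 CPM, below every secretory value in both rats. The log2 fold changes were 5.24 ± 0.60 (adjusted p = 1.5e-05) in goblet/Paneth, 5.84 ± 0.61 (adjusted p = 1.2e-05) in tuft, 4.39 ± 0.70 (adjusted p = 0.00056) in CHE and 6.23 ± 0.64 (adjusted p = 8.9e-06) in enteroendocrine cells. In cells thinned to 5000 UMIs it was detected in 33.5% of goblet/Paneth cells in rat 1 and 16.1% in rat 2 and in 14.3% of tuft cells in rat 1 and 54.5% in rat 2, beside 0.528% of mature enterocytes in rat 1 and 0.818% in rat 2. The levels of rat 1 in tuft and CHE cells came from 12 and 5 UMIs. Gstm1 was not confined to the secretory classes. Crypt cells held 135 and 24 of its UMIs in rats 1 and 2, and its mature enterocyte level was 0.226 and 0.0648 of the crypt level. That difference was not called with TMM.

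**Figure D4:**
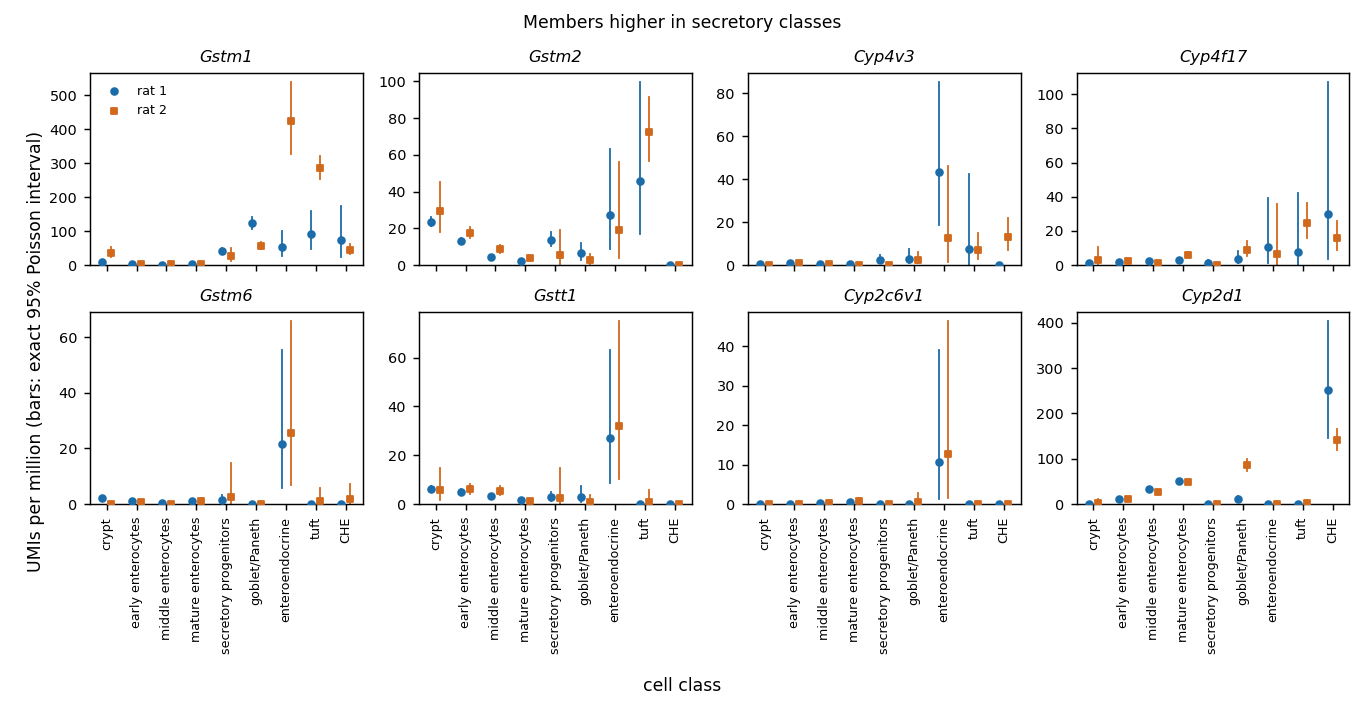
Level in CPM, on linear axes from 0, of 8 members called higher in secretory classes, with 1 point per rat for each cell class and bars for the exact 95% Poisson interval of the count. Gstm1 lay at 123 and 56.4 CPM in goblet/Paneth cells and 91.3 and 286 CPM in tuft cells of rats 1 and 2, against 1.71 and 2.27 CPM in mature enterocytes.

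Among the members called lower in goblet/Paneth cells, Cyp4f1 was at 4.24 in rat 1 and 10.7 in rat 2 and Cyp3a18 at 2.12 and 2.54 CPM, with log2 fold changes of -7.00 ± 0.69 (adjusted p = 3.8e-06) and -5.81 ± 0.61 (adjusted p = 7.2e-06). Ugt2b37 and Gsta5 had 1 UMI each in rat 1 and 0 in rat 2 and were also called lower, so that their fitted changes rested on these counts. Of the 47 members 17 were not called. Among them Gstp1 was at 1309 and 529 CPM, against 1694 and 1437 in early and 55.6 and 66.0 in mature enterocytes. Mgst2 was at 613 and 403 CPM, against 1231 and 1419 in early and 534 and 669 in mature enterocytes. Mgst2 had an adjusted p of 0.053, or 0.018 with the rat as block. Cyp4a1 had 0 UMIs in this class of both rats and was at least 2.99-fold lower than enterocytes in rat 1 and at least 1.84-fold lower in rat 2, against a floor of 3 counts per library. Some tip genes differed between the rats: Cyp3a9 was at 12.7 and 261 and Cyp3a62 at 43.2 and 212 CPM in goblet/Paneth cells of rats 1 and 2. This class joined 2 clusters in unlike proportions. One held 50 cells of rat 1 and 108 of rat 2, with mean log levels of 1.10 for the villus program list and 0.144 for the Paneth list. The other held 114 and 29 cells, with 0.658 and 1.01 for these lists. The part of this mix in the difference was not tested.

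In tuft cells Gstm2 was at 45.7 and 72.5 CPM in rats 1 and 2, its highest level among the named classes in both rats, and its log2 fold change was 2.30 ± 0.45 (adjusted p = 0.0015). These levels came from 6 and 71 UMIs, and in rat 1 the counting interval overlapped that of enteroendocrine cells, at 27.0 CPM. The tuft cells of rat 1 also carried stem markers. Their stem list summed to 845 CPM, against 76.6 in tuft cells of rat 2 and 1158 in crypt cells of rat 1. The tuft list summed to 1507 CPM in rat 1 and 4104 in rat 2. The part of this mix in the tuft levels was not tested. Cyp4v3, a fatty acid omega-hydroxylase, and Cyp4f17 were also called higher, with log2 fold changes of 2.91 and 1.95, from 1 UMI each in rat 1 and 7 and 24 in rat 2. Ugt2a3, Gsta5, Cyp2d5, Gstm6l and Sult1c2a had 0 UMIs in the tuft cells of both rats. In rat 2 they were at least 27.3, 4.74, 2.88, 1.44 and 1.72-fold lower than in enterocytes. In rat 1, with 14 tuft cells, the floor of 22.8 CPM was not low enough for a bound.

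CHE cells had the highest level of Cyp2d1 of any named class in both rats, 252 in rat 1 and 141 in rat 2, against 50.7 and 48.9 CPM in mature enterocytes. The next class in rat 2 was goblet/Paneth cells, at 85.9 CPM. The log2 fold change of CHE cells against enterocytes was 2.34 ± 0.56 (adjusted p = 0.011), and their rat 1 value came from 17 UMIs in 7 cells. In thinned cells Cyp2d1 was detected in all 7 CHE cells of rat 1 and 50% of those of rat 2, in 21.3% of mature enterocytes in rat 1 and 20.9% in rat 2 and in 0.826% of tuft cells in rat 2. It had 0 UMIs in the 14 tuft cells of rat 1. Cyp2c24 and Cyp4f17 were called higher at 2.57 and 2.35, with 2 UMIs each in rat 1. Cyp4v3 was called at 3.94, from 13 UMIs in rat 2. It had 0 in rat 1, where 3 counts stand for 44.4 CPM, above its level in every enterocyte class, so that rat 1 gives no direction. Cyp2d2, Gsta5, Gstm2, Sult1c2a and Gstt1 had 0 UMIs in CHE cells of both rats, which bounds them at 4.64, 4.90, 3.38, 1.78 and 1.43-fold lower or more in rat 2, with no bound in rat 1.

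Enteroendocrine cells, the hormone-producing class, held Gstm6, Gstt1 and Cyp2c6v1 at their highest level among the named classes in both rats. Gstm6 was at 21.6 in rat 1 and 25.7 in rat 2, Gstt1 at 27.0 and 32.1 and Cyp2c6v1 at 10.8 and 12.8 CPM, each from 2 to 5 UMIs in a rat. The log2 fold changes were 4.63 ± 0.77 (adjusted p = 0.00065), 2.53 ± 0.53 (adjusted p = 0.0032) and 4.43 ± 0.99 (adjusted p = 0.0068), and Cyp4v3 was called at 5.21. Ugt2b17 had 0 UMIs and was at least 7.67-fold lower in rat 1 and 4.44-fold lower in rat 2. Gsta2 was at least 2.86 and 2.69-fold lower, and Cyp2d1 at least 1.98 and 1.49-fold lower.

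Some enteroendocrine levels were high in rat 2 only. Cyp2j10 was at 0 in rat 1 and 346 in rat 2, Ugt2a3 at 0 and 378 and Cyp2u1 at 0 and 192 CPM. Cyp2j10 was called higher at 2.44, although it had 0 UMIs in the 22 cells of rat 1. The Ugt2a3 molecules of rat 2 came from 5 of 11 cells, and 69.5% of them from 1 cell.

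Enterocyte transcripts released into the suspension are a background to the secretory levels. The summed level of 6 abundant enterocyte genes (Fabp1, Fabp2, Apoa1, Apoa4, Rbp2 and Apoc3) in other classes was 0.00628 to 0.257 of that in mature enterocytes, the highest being tuft cells of rat 2. For each member the level in a class was divided by that in the enterocyte class where it was highest. Members for which the lower 95% counting limit of this ratio exceeded the ratio of every one of the 6 genes in both rats numbered 18 in crypt cells, 21 in secretory progenitors, 14 in goblet/Paneth cells, 11 in enteroendocrine cells, 7 in CHE cells and 3 in tuft cells. Gstm1 and Cyp2d1 were among the 7 of CHE cells and also among the 14 of goblet/Paneth cells. The highest of the 6 ratios sets this limit. In tuft cells of rat 2 it was 1.19, for Fabp1, whereas the lowest of the 6 was 0.0139. The limit is therefore strict, and it is not a measured level of released RNA. Members that did not exceed it were not separated from released RNA by this rule. The share over all genes that exceeded it is not given here, so these counts do not set the members apart from other genes.

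Partner genes of the pathway were read from a separate list of receptors, electron donors and cofactor suppliers, other drug enzymes and pumps. Between mature and crypt cells, 3 of 8 receptors and regulators were higher and 0 lower, among them Nr1i2, the pregnane X receptor, at 2.03 ± 0.48 (adjusted p = 0.0034). Of all genes 23.3% were higher and 26.9% lower in this comparison. Of 13 electron donors and cofactor genes 9 were higher and 1 lower, of 17 other enzymes 8 and 4, and of 5 pumps 3 and 1. Between mature and early enterocytes, 0 of 8 receptors, 1 of 13 donors, 1 of 17 other enzymes and 1 of 5 pumps were higher, and 1 other enzyme was lower, where 3.92% of all genes were higher and 4.68% lower.

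Por, which passes electrons to every microsomal P450, was at 89.7 in rat 1 and 104 in rat 2 in early and 317 and 290.1 CPM in mature enterocytes, a log2 fold change of 2.23 ± 0.59 (adjusted p = 0.034). The pump Abcc2, which exports conjugates, went from 20.2 and 35.6 to 83.5 and 145 CPM, or 2.63 ± 0.52 (adjusted p = 0.011). Fmo1, a flavin monooxygenase, was higher at 3.17 and the carboxylesterase Ces2g lower at -2.30.

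The rats were compared without a test, since each gave 1 library. Over mature enterocytes, 39 members had at least 50 UMIs in a rat, and 28 of them were within 2-fold. The other 11 comprised 6 that were higher in rat 2, where 7.47% of 6664 genes were, and 5 that were higher in rat 1, where 12.4% of genes were. Gsta3 was 7.36-fold higher in rat 2, Cyp1a1 4.44-fold, Ugt2a3 3.90-fold, Cyp2s1 3.21-fold and Cyp4f17 2.17-fold. Cyp4b1 was 3.34-fold higher in rat 1, Gstk1 2.82-fold, Sult2b1 2.27-fold, Gsto1 2.25-fold and Cyp4a1 2.11-fold. The mature class was not equally mature in the rats: its median villus program score was 2.58 in rat 1 and 2.87 in rat 2. Step 10 of the score held 176 of its 947 cells in rat 1 and 292 of its 611 in rat 2. The part of this mix in the folds between the rats was not tested.

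Of these 10, Gsta3, Cyp1a1, Ugt2a3, Cyp2s1, Cyp4b1 and Cyp4a1 differed by over 2-fold in the same direction in middle enterocytes too, whereas Gstk1, Sult2b1, Gsto1 and Cyp4f17 were within 2-fold there. In middle enterocytes Cyp4b1 was at 42 in rat 1 and 3.16 in rat 2, and Gsta3 at 29.8 and 204 CPM. Cyp1a1 was 3.86-fold higher in rat 2 in early and 3.87-fold in middle enterocytes. The libraries also differed in the Cell Ranger version given in their headers and in the median share of mitochondrial UMIs, which was 12.2% to 15.6% in the enterocyte classes of rat 1 and 23.2% to 27.3% in those of rat 2, and rat, library and version cannot be told apart.

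**Figure D5:**
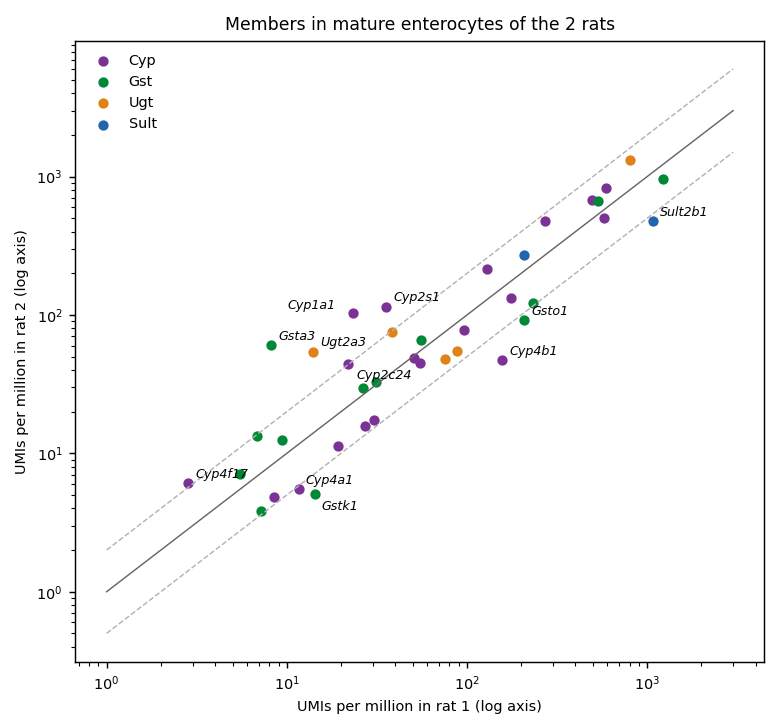
Level of each member in mature enterocytes of rat 1 against rat 2, both axes in CPM on a log scale, with lines for equal levels and for 2-fold differences. Of 39 members, 28 lay within the 2-fold lines, and Gsta3 and Cyp4b1 were farthest from equality on the sides of rat 2 and rat 1.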

How the data were processed

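The authors deposited a matrix of UMI counts for each of the 2 rats, without normalization, which Cell Ranger had produced on the Rnor6 genome. According to the file headers the library of rat 2 was counted by version 5.0.1 and that of rat 1 by version 3.1.0, and this difference cannot be told apart from that between the animals. Members of multigene families are less certain, because close copies can share reads.

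As in the study, retained cells had 200 to 5800 genes, over 5000 UMIs and no more than 40% of UMIs from mitochondrial genes. They were integrated and clustered with Seurat 5.3.0 (R 4.3.3), using 2000 variable genes and 20 components, at resolution 0.3 and then 0.5. A cluster with Ptprc in over 25% of cells (181 cells of rat 1 and 302 of rat 2), a cluster led by hemoglobin genes (28 and 242) and cells with under 10 epithelial UMIs (1 and 106) were left out. Clusters were named from marker lists with limits set after the clusters were seen. Clusters that met no limit stayed unnamed: 453 cells of rat 1 and 17 of rat 2 lay between crypt and enterocytes, and 3 others held 80 and 3, 29 and 17, and 103 and 40 cells. Scrublet (scanpy 1.11.5) called 116 and 2 doublets, 0.0897% of the cells of rat 2, which shows no working call there, and these were kept in the reported fits.

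Counts were summed per rat and class over 9 named classes and tested with edgeR 4.0.16 (glmQLFit and glmQLFTest, TMM, filterByExpr) over 10182 genes with Benjamini-Hochberg adjustment at 0.05. The filter left out Cyp2u1, Sult1a1, Gsta6, Cyp4f37 and Cyp4f40. The p-values rest on the spread between the 2 rats within classes, pooled over the 9 classes and drawn toward that of other genes. It is not the spread of the compared classes alone, and the reported fit treats the classes of a rat as independent. Median depth was 5585 UMIs per barcode in rat 1 and 4402.5 in rat 2. Ratios and shares carry exact 95% intervals in the tables, which cover counting error only, and a count of 0 was bounded at 3 counts. In simulated data, where 200 genes were given log2 changes of 3, the test found 185 of them between mature and early enterocytes and 108 between enteroendocrine cells and enterocytes. False calls were 6.09% and 2.70% of the calls. The simulated counts had a fixed dispersion of 0.1, no difference between rats and otherwise equal levels in all classes. This spread was not fitted to the data, so these numbers do not measure the power of the reported tests.

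Each rat gave every class, so the rat pairs the sums. Deviations of the classes correlated by 0.195 at the median of 36 class pairs (0.0725 to 0.736). Named were the 6 most abundant members of each family, the 5 with the largest called change in each direction and comparison that had the same direction in both rats, the 5 with the largest fold between rats in each direction, and members highest in the same secretory class of both rats. Other members that are named were chosen after their values were seen. The members and lists were chosen with earlier results of these data known. Alternatives were DESeq2 1.42.0, RLE factors, library totals alone, a replicate block, no low-count filter, and other cell filters, clusterings and class boundaries.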

Additional observations from a re-analysis of the deposited data

Results flagged for a closer look

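Of the members, Sult1a1 and Gsta6 had a large share of their UMIs outside the cells compared above. In barcodes of at most 5000 UMIs, which entered no comparison, the level of Sult1a1 was 2.15 CPM for rat 1 and 9.83 CPM for rat 2, against 1.23 and 2.92 CPM in crypt cells, its highest named class. In rat 1 these barcodes held 25 of its UMIs, or 45.5%, and crypt cells held 22. In rat 2 they held 83.7% of its UMIs, and 82.2% of the 90 barcodes with a Sult1a1 UMI also had a Ptprc UMI, against 50.3% of all such barcodes. Gsta6 was at 12.0 CPM in the same barcodes of rat 2, from 126 UMIs that made up 79.8% of its UMIs in this library. Of the 96 barcodes with a Gsta6 UMI, 85.4% had a Ptprc UMI and 26% an Epcam UMI, against 50.3% and 43.0% of all such barcodes. In the cells of rat 2 left out for their Ptprc level Gsta6 was at 4.68 CPM, and in every named class it was at most 1.02 CPM.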

How the results depend on the processing

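Across the fitted alternatives, 0 of the members' calls turned direction. Between mature and early enterocytes 13 members were called. No filter on low counts gave 23, the replicate block 25 and enterocyte classes made within each rat 8, and the members' median of 0.35 became -0.23 with library totals alone, where the median of all genes was -0.60. The cause was not tested beyond the scaling and the number of genes and samples used. Over all genes this comparison called 876, against 376 to 2730 in the alternatives. The other comparisons stayed within 1.5 times their member counts, and the replicate block lost 0 of the 159 calls, RLE factors 17, DESeq2 15 and library totals alone 34. With 1 rat left out no test was possible, and the fitted values of the remaining rat had the same direction except for 2 called members with 0 UMIs in rat 1. Cyp4v3 in CHE cells was at -1.58 without replicate 2 and 3.90 without replicate 1, and Cyp2j10 in enteroendocrine cells at -6.30 and 3.84. The negative values are set by the fit's prior count and are no measured size, and for Cyp4v3 the 0 gives no direction. With RLE factors the higher share of all calls went from 49.8% to 61.6% in tuft, 44.7% to 55.1% in CHE and 47.5% to 62.9% in enteroendocrine cells, and with DESeq2 to 60.9%, 54.3% and 66.4%. With library totals alone it went to 81.2%, 67% and 71.5%, and to 68% from 54.6% in goblet/Paneth and to 14.9% from 45.5% between mature and early cells. Depth limits the classes of few cells most, the 7 CHE cells of rat 1 in particular. The alternatives with library totals, with no minimum of epithelial UMIs, without either of 2 crypt clusters and with the cluster between crypt and enterocytes counted as enterocytes were chosen after seeing the data.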
